A study of Canis lupus familiaris with 2 samples.

Results

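The genes described here are the transcriptional feedback genes of ERK signalling in MDCK cells, an established line of columnar epithelial cells from dog kidney. They were chosen by symbol, from a set of 10 that holds MAP kinase phosphatases, Sprouty and Spred genes and a pair of ETS transcription factors. Of these, 9 were found among the 23510 features of the deposited tables (DUSP1, DUSP5, DUSP6, SPRY1, SPRY2, SPRY4, SPRED1, ETV4 and ETV5), and 1 was not analysed here. The RNA came from 1 culture in 2-cm-high medium, labelled 2 cmH2O and described there as without pressure, and from 1 culture in 50-cm-high medium, which loads a static water pressure of 50 cm H2O. Both cultures grew on a semipermeable membrane in EMEM with serum, carried no transgene or added agent in the labels, and are labelled day 3. With 1 library per medium height, no replicate error exists, no value below has an SD and no p-value can be given.

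ERK is the terminal kinase of the cascade that runs from growth factor receptors through RAS, RAF and MEK. When it is active it phosphorylates transcription factors that switch on its own inhibitors. Dual-specificity phosphatases remove the phosphates from the activation loop of MAP kinases, Sprouty and Spred proteins restrain signalling between the receptor and RAF, and the ETS factors ETV4 and ETV5 are themselves induced by receptor and ERK signalling and turn on further targets. In kidney epithelium this circuit is best known from the branching ureteric bud, where ETV4, ETV5 and SPRY1 act around RET signalling.

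The values are FPKM, in which the fragments on a gene are scaled to its exon length and to the size of the library, so that levels can be compared between genes per length within a culture. Each change is a ratio, FPKM in 50-cm-high medium over FPKM in 2-cm-high medium with no pseudocount. Features had to exceed 1 FPKM in both cultures, and those with a ratio above 2 or below 0.5 counted as changed. The number of reads behind each value is unknown. Of the 574 features above 0 and under 0.1 FPKM in both cultures, 219 had a ratio within 0.2% of 1.0977, the step that 1 read in each culture leaves, so 1 read was worth 9.77% more FPKM in 50-cm-high medium. The epithelial genes CDH1, EPCAM, TJP1, KRT8, KRT18 and KRT19 were at 50.5 to 1641 FPKM in both cultures, and CDH16, the kidney cadherin, was at 1.96 FPKM at 2 cm and 0.676 FPKM at 50 cm. Of the fibroblast list, only VIM was above 1 FPKM (1802 and 2380 FPKM), whereas the 3 collagen genes COL1A1, COL1A2 and COL3A1 stayed under 0.1 FPKM. The endothelial list summed to 0.458 and 0.268 FPKM, and the leukocyte genes PTPRC and CD3E were listed at 0. The lower CDH16 and higher VIM value at 50 cm stand beside every ratio below, and their part in them was not tested.

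None of the 8 feedback genes above 1 FPKM in both cultures changed more than 2-fold, and all 8 stayed within 1.5-fold. Over all 11057 features that passed the same minimum, 0.389% were more than 2-fold higher and 1.28% more than 2-fold lower in 50-cm-high medium, and 7.19% were past 1.5-fold in either direction, so 0 of 8 is near that background. The ratios were above 1 for 6 of the 8 genes and below 1 for 2, although the ratios of DUSP6 and ETV4 were below 1 on the TPM scale and after quantile normalization, and that of DUSP6 also after recentring on the median. The median log2 ratio was 0.08, beside 0.01 over all features, of which 52.6% were higher. SPRY4 was under 1 FPKM in 2-cm-high medium and had the only ratio past 2-fold. In bulk RNA of this kind, a change in every cell and a change in the share of cells that express a gene cannot be told apart.

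**Figure D1:**
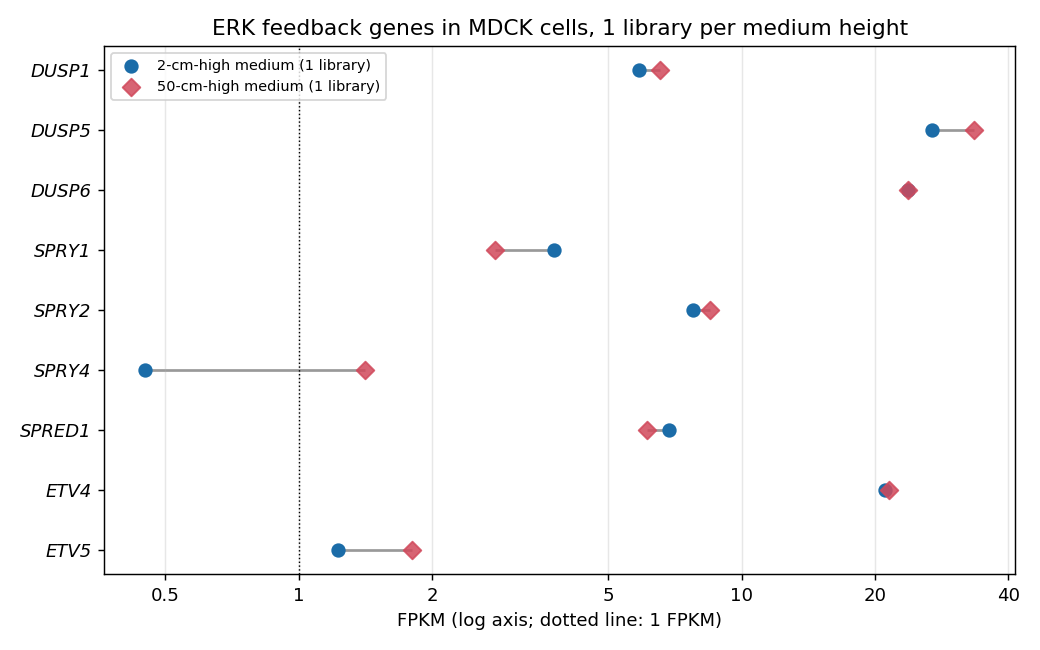
FPKM (log axis) of the 9 ERK feedback genes in the 2-cm-high-medium library (circles) and the 50-cm-high-medium library (diamonds), joined by a line for each gene, with a dotted line at 1 FPKM. There are no error bars because each medium height has 1 library. DUSP6 and ETV4 have overlapping points, and the widest gap is that of SPRY4, from 0.450 to 1.41 FPKM.

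The levels fell into tiers that were the same in both cultures. DUSP5, DUSP6 and ETV4 led, in that order, at 21.1 to 27.0 FPKM in 2-cm-high medium and 21.5 to 33.5 FPKM in 50-cm-high medium. SPRY2, SPRED1 and DUSP1 followed at 5.86 to 7.77 and 6.11 to 8.49 FPKM, respectively. SPRED1 and DUSP1 were the only genes to exchange places, with SPRED1 above DUSP1 at 2 cm and below it at 50 cm. SPRY1, ETV5 and SPRY4 were the lowest in both. Without replicate cultures, neighbours in this order cannot be separated by their spread. DUSP5 lay above 75.5% of the features detected in 2-cm-high medium and SPRY4 above 18.6%.

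Among the phosphatases, DUSP6 encodes the cytoplasmic MAP kinase phosphatase that is selective for ERK and is widely read as a marker of ERK activity. Its FPKM value was 23.7 in 2-cm-high and 23.8 in 50-cm-high medium, a difference of 0.18% and a log2 ratio of 0.003. As deposited, this was among the smallest differences in the data, since 0.95% of the 11057 features had a log2 ratio nearer to 0. That place depends on the scaling, as the log2 ratio of DUSP6 was -0.03 on the TPM scale and after quantile normalization.

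DUSP5 encodes a nuclear phosphatase that is likewise selective for ERK and holds it in the nucleus. It was at 27.0 FPKM at 2 cm and 33.5 FPKM at 50 cm. This ratio of 1.24 (log2 0.31) was the highest of the 3 phosphatases, and 11.2% of all features had a higher one. The difference of 6.52 FPKM was the largest among the 9 genes on the linear scale, although it was not among the largest as a ratio.

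DUSP1 encodes a nuclear phosphatase with a broader range that includes p38 and JNK, and its gene responds early to growth factors and to stress. It was at 5.86 FPKM in 2-cm-high and 6.54 FPKM in 50-cm-high medium, a ratio of 1.12 (log2 0.16), and 26.4% of features had a higher ratio. The order of the log2 ratios was thus DUSP5, DUSP1 and DUSP6, all below the 1.5-fold line, with DUSP6 at 0.003 as deposited and -0.03 on the TPM scale. Summed over these 3 genes, FPKM went from 56.6 to 63.8.

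Within the Sprouty family, the genes did not share a direction. SPRY1 was at 3.76 FPKM at 2 cm and 2.77 FPKM at 50 cm, a ratio of 0.737 (log2 -0.44). This was the lowest ratio of the 9 genes, and 8.43% of all features had a lower one. SPRY2 was at 7.77 and 8.49 FPKM, a ratio of 1.09 (log2 0.13), and it remained the highest of the family in both cultures. SPRY1 and SPRY2 thus differed from 1 in opposite directions, each by less than 1.5-fold.

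SPRY4 was at 0.450 FPKM in 2-cm-high and 1.41 FPKM in 50-cm-high medium, which is a ratio of 3.14 and a log2 ratio of 1.65. With a pseudocount of 1 FPKM the log2 ratio was 0.73, short of 2-fold. It did not meet the minimum of 1 FPKM in both cultures. When 1 FPKM was required in at least one culture, SPRY4 passed through the 50-cm-high-medium culture alone, so a gene of its 2-cm level could pass only by being higher there. Under that minimum 0.789% of 11536 features were more than 2-fold higher and 2.54% more than 2-fold lower.

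Ratios were more scattered at low FPKM. Among the 769 features whose geometric mean over the cultures lay between 0.5 and 1 FPKM, as that of SPRY4 did, 5.98% were more than 2-fold higher and 13.5% more than 2-fold lower in 50-cm-high medium. In that range 11 features (1.43%) had a ratio above that of SPRY4. Between 10 and 50 FPKM, the range of DUSP5, DUSP6 and ETV4, the corresponding shares past 2-fold were 0.277% and 0.533% of 5062 features. None of the 9 ratios lay within 0.05% of one that at most 10 reads in each culture would give. With at most 20 reads, a limit chosen after the values were seen, the ratio of SPRY4 lay at that of 20 reads against 7, and no other of the 9 did so. Multiples of those numbers give the same ratio, and genes at far higher FPKM, such as ETS1 (35.2 FPKM at 2 cm) and RASA1 (32.4 FPKM), also lay at such ratios, so a match can be a coincidence and the reads on SPRY4 remain unknown.

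The share of SPRY4 in the summed Sprouty FPKM was 3.76% at 2 cm and 11.1% at 50 cm, whereas that of SPRY1 was 31.4% and 21.9%. The sum itself was 12.0 FPKM in 2-cm-high and 12.7 FPKM in 50-cm-high medium. A sum over genes with ratios on both sides of 1 moves less than its most changed member. The comparison of shares and sum thus adds no result beyond the single ratios. The share of SPRY4 rests on a value under 1 FPKM at 2 cm, with 1 library per medium height.

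SPRED1 encodes a membrane-bound relative of Sprouty that brings neurofibromin to RAS. It was at 6.86 FPKM at 2 cm and 6.11 FPKM at 50 cm, a ratio of 0.890 (log2 -0.17), and 24.9% of features had a lower ratio. With SPRY1 it was one of the 2 feedback genes that were lower in 50-cm-high medium.

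Of the ETS factors, ETV4 was at 21.1 FPKM in 2-cm-high and 21.5 FPKM in 50-cm-high medium, a ratio of 1.02 (log2 0.03). As deposited, its log2 ratio was nearer to 0 than that of all but 8.62% of features. ETV5, its close relative, was far lower, at 1.23 and 1.80 FPKM, and had a ratio of 1.46 (log2 0.55). This was the highest ratio among the 8 genes above 1 FPKM in both cultures, and 2.49% of all features exceeded it. Among the 815 features between 1 and 2 FPKM in geometric mean, where ETV5 lay, the middle 90% of log2 ratios ran from -1.19 to 0.70, a range that holds the value of ETV5.

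**Figure D2:**
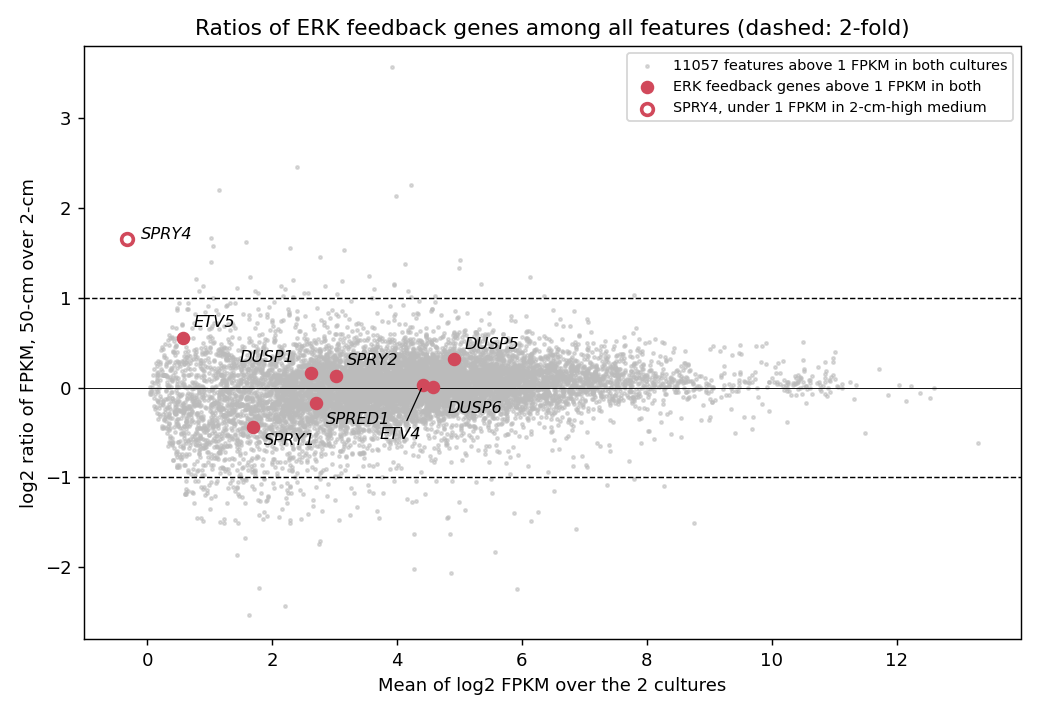
Log2 ratio of 50-cm over 2-cm FPKM (y axis) against the mean log2 FPKM of both cultures (x axis) for the 11057 features above 1 FPKM in both (grey), with the 8 feedback genes that passed this minimum (filled) and SPRY4 (open), and dashed lines at 2-fold. The filled points lie between -0.44 (SPRY1) and 0.55 (ETV5), SPRY4 lies at 1.65, and the grey cloud widens toward low FPKM.

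The relatives of these genes were examined in the same way. The files list 22 genes with a DUSP symbol, of which 17 were above 1 FPKM in both cultures and 3 (DUSP9, DUSP15 and DUSP27) were at 0 in both. Of the 6 further MAP kinase phosphatases, 5 could be compared, and none was past 2-fold, with a median log2 ratio of 0.01. DUSP7, the close relative of DUSP6, was at 20.7 FPKM at 2 cm and 26.9 FPKM at 50 cm, a ratio of 1.30. DUSP10, which acts on p38 and JNK, had the highest ratio of them, 1.51, from 2.90 to 4.40 FPKM. DUSP2, the nuclear relative of DUSP1, was at 2.10 and 1.95 FPKM and had the lowest (log2 -0.11).

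DUSP8 was at 1.49 and 1.39 FPKM, and DUSP16 at 5.36 and 5.40 FPKM. DUSP5, DUSP6 and DUSP7 together made up 80.1% of the summed FPKM of the 9 MAP kinase phosphatase genes at 2 cm and 81.1% at 50 cm. Those 3 genes encode ERK-selective enzymes of this group. Outside it, the dual-specificity phosphatases DUSP11 and DUSP12 were higher than any of them, at 56.9 and 62.7 FPKM at 2 cm. Of the 12 other dual-specificity phosphatases, 9 were compared and none was past 2-fold, the ratios running from -0.57 (DUSP23) to 0.21 (DUSP19) on the log2 scale. DUSP13 was at 0.190 FPKM in 2-cm-high and 0.665 FPKM in 50-cm-high medium, under the minimum in both.

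Among the other Sprouty and Spred genes, SPRED2 was the most abundant of the whole family. It was at 18.4 FPKM at 2 cm and 21.7 FPKM at 50 cm (log2 ratio 0.24), and its share of the summed Sprouty and Spred FPKM was 47.4% and 52.0%, respectively. SPRED3 was at 1.55 and 1.30 FPKM (log2 ratio -0.25), and SPRY3 was listed at 0.0170 and 0 FPKM. SPRED1 and SPRED2 therefore lay on opposite sides of 1. ETV1, which groups with ETV4 and ETV5, was at 0.977 and 1.15 FPKM.

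**Figure D3:**
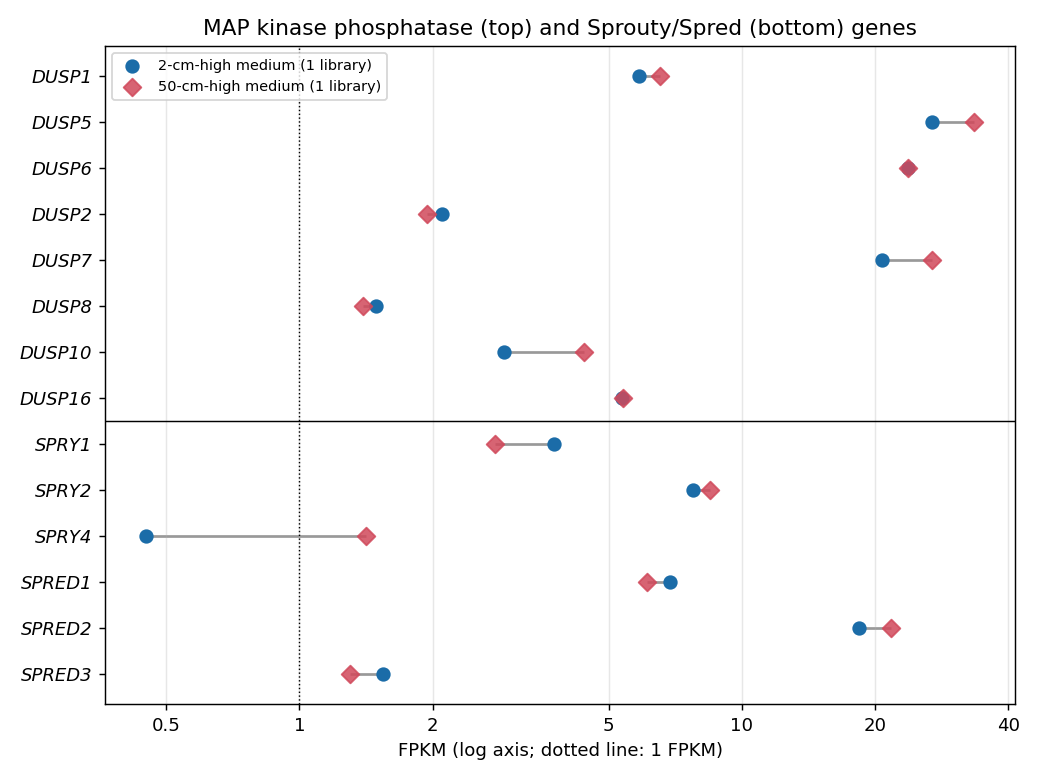
FPKM (log axis) of the MAP kinase phosphatase genes (above the line) and the Sprouty and Spred genes (below it) that were above 0 in both cultures, with circles for the 2-cm-high-medium library and diamonds for the 50-cm-high-medium library, and a dotted line at 1 FPKM. DUSP5, DUSP6, DUSP7 and SPRED2 lie at 18.4 FPKM or more in both libraries, and the largest gap is that of SPRY4.

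The pathway around the feedback genes was described by lists of its parts, with counts beside the same background of 0.389% higher and 1.28% lower. All 19 genes of the RAS to ERK core were above 1 FPKM in both cultures, 13 were higher and 6 lower, and none was past 2-fold (median log2 ratio 0.07). HRAS, one of the RAS genes, had the highest ratio of this list, from 30.8 to 47.2 FPKM (1.53-fold), and KSR1, a scaffold of the cascade, the lowest, from 4.71 to 3.43 FPKM (ratio 0.728). Of the 12 other brakes on receptor and ERK signalling, 11 were compared, 4 were higher and 7 lower, and none was past 2-fold (median log2 ratio -0.09). PHLDA1 had the highest ratio of these, at 35.1 and 45.4 FPKM, and CBLB, a ubiquitin ligase for receptors, the lowest, at 2.13 and 1.44 FPKM. PHLDA1 is also in the list of output genes below and is counted in both.

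Of the other ETS factors, 12 of 13 were compared, and their log2 ratios lay between -0.50 (ELF3) and 0.49 (ETV3), none past 2-fold. Signalling by FGF receptors induces Sprouty and ETV genes in many tissues. Of the FGF list, 5 of 13 genes were compared, namely FGFR1, FGFR2, FGFR3, FGFR4 and FGFRL1. Of these, 1 was higher, 4 were lower and none was past 2-fold. Their median log2 ratio was -0.19, with the lowest at FGFR3 (-0.27) and the highest at FGFR2 (0.03). In the list of JNK and p38 kinases and their activators, 7 of 11 genes were compared and none was past 2-fold, with the lowest ratio at MAPK13 (log2 -0.20) and the highest at MAP2K3 (log2 0.47).

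Genes past 2-fold were found in the list of immediate early and MAP kinase output genes, of which 19 of 24 were compared. Here 14 were higher and 5 lower, the median log2 ratio was 0.23, and 3 genes were more than 2-fold higher. These were PLAUR, the urokinase receptor, from 7.64 to 18.0 FPKM (2.36-fold), CCND1, encoding cyclin D1, from 45.7 to 107 FPKM (2.35-fold), and FOSL1, an AP-1 subunit, from 10.4 to 22.8 FPKM (log2 ratio 1.14). All 3 belong to the rows ordered by ratio that are described at the end. Whether symbols kept their own values in those rows was not tested. EGR1, an immediate early transcription factor named after its value was seen, was at 14.5 FPKM in 2-cm-high and 7.33 FPKM in 50-cm-high medium, a ratio of 0.505, just short of 2-fold as deposited and just past it on the TPM scale. Among genes above 1 FPKM in both cultures, those of the output list thus had ratios from 0.505 to 2.36. The feedback genes ran from 0.737 (SPRY1) to 1.46 (ETV5), with SPRY4 outside that minimum at 3.14. The difference between the lists was not tested. Both were chosen with earlier results of these data known. A range also widens with the number of genes, which was larger in the output list.

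**Figure D4:**
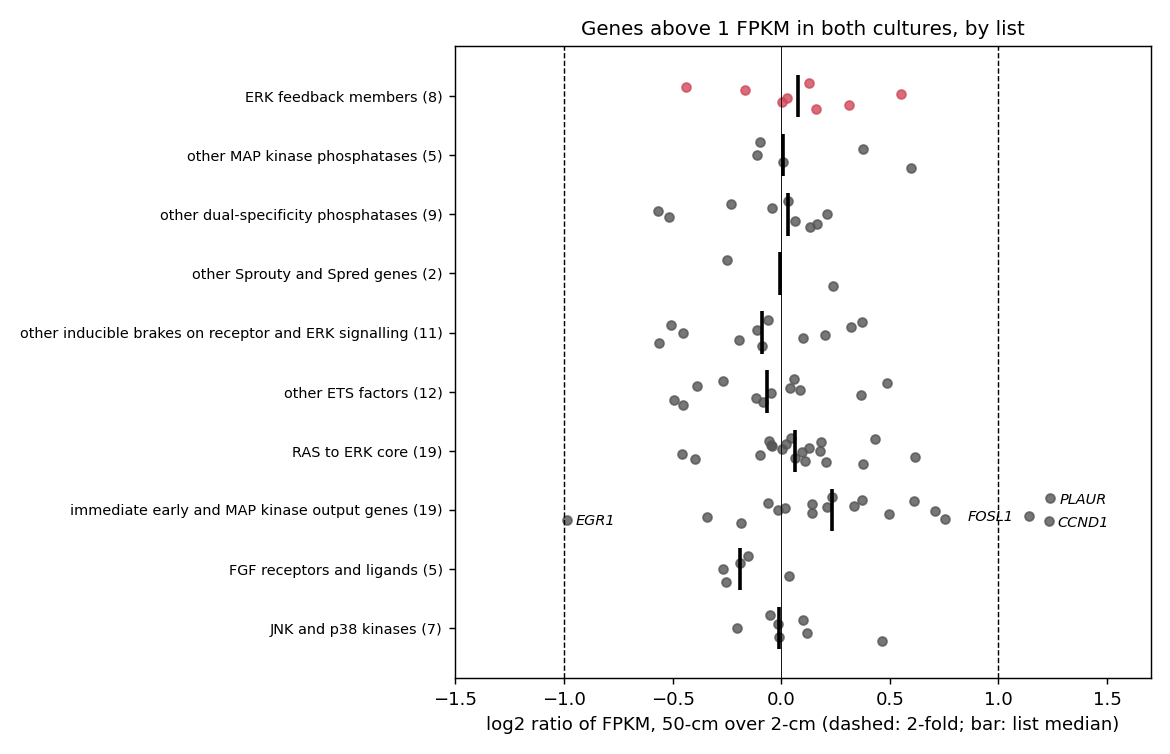
Log2 ratio of 50-cm over 2-cm FPKM (x axis) for each gene above 1 FPKM in both cultures, by list (y axis, number of genes compared in parentheses), with the list median as a bar and dashed lines at 2-fold. The 8 feedback genes (top) lie inside the 2-fold lines, as do all other lists except the output genes, where PLAUR, CCND1 and FOSL1 lie beyond them and EGR1 lies at -0.99.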

How the data were processed

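Total RNA of MDCK cells from 1 culture in 2-cm-high and 1 culture in 50-cm-high medium was sequenced by the authors on stranded mRNA libraries as 75-base single-end reads. Per the labels and the study's methods, mapping to CanFam3.1 used TopHat 2.0.13 (with Bowtie 2 at 2.2.3, SAMtools at 0.1.19), and Cuffnorm 2.2.1 gave the deposited FPKM values. Which gene annotation and scaling they used is not given in the sources used here. FPKM divides by exon length and library size, so a low value can rest on few reads. Depending on the scaling, a shift in a few abundant genes can move all others.

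Features were matched by symbol between the files, and ratios were computed without a pseudocount above 1 FPKM in both cultures, the minimum that the study's methods state. No test was run, because each group has 1 library. The alternatives were other minima (above 1 FPKM in at least one culture, above 0 or above 5 FPKM in both), a pseudocount of 0.1 or 1, the TPM scale, recentring on the median, quantile normalization and a fold of 1.5. The genes and lists were chosen with earlier results of these data known. The text names all 9 feedback genes, their relatives, and in each list the genes past 2-fold or, where there were none, the highest and the lowest ratio. No gene was named for a like pattern, since 2 libraries give no pattern beyond a ratio. A RefSeq gene table of another dog assembly listed all 9 symbols as protein coding, and its coordinates were not used. The scripts were tested on simulated data whose scatter was smaller than that of these data at low FPKM. That test therefore says nothing about calls on low values. The work used pandas 2.3.3 and numpy 2.4.6 under Python 3.11.15, and matplotlib 3.10.9 for plots.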

Additional observations from a re-analysis of the deposited data

How the results depend on the processing

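No paired analysis was possible because each medium height has 1 library and the labels give no replicate numbers. The feedback genes above 1 FPKM in both cultures stayed short of 2-fold wherever they passed the minimum, which SPRY1 and ETV5 did not above 5 FPKM, and 6 of the 8 kept their direction there. The 2 nearest to 1 did not, DUSP6 running from -0.03 to 0.003 and ETV4 from -0.02 to 0.03 on the log2 scale. The log2 ratio of ETV5 ran from 0.33 to 0.80 and that of SPRY1 from -0.47 to -0.28. The log2 ratio of SPRY4, with the minimum waived, was 1.46 with a pseudocount of 0.1, 0.73 with a pseudocount of 1 and 1.90 after quantile normalization. The median of the feedback genes ran from 0.04 to 0.13. With a minimum of 1 FPKM in at least one culture, 1 feedback gene (SPRY4, log2 ratio 1.65) was more than 2-fold higher. In all, 91 features (0.789% of 11536) were then higher and 293 (2.54%) lower. With any value above 0 it was again 1, beside 451 and 765 features, and 1 other dual-specificity phosphatase (DUSP13) was then past 2-fold. The share of all features was not computed there, so these counts have no background beside them. Between 0.5 and 1 FPKM in geometric mean, the range of SPRY4, 5.98% of features were more than 2-fold higher. Above 5 FPKM, 19 features were higher and 43 lower, and their share of all features was not computed. The median of the other MAP kinase phosphatases moved to 0.19, with only DUSP7 and DUSP16 compared. That of the other Sprouty and Spred genes moved to 0.24, the value of SPRED2 alone. A pseudocount of 1 left 24 and 68 of the 11057 features past 2-fold. On the TPM scale and after recentring, 1 output gene (EGR1) was more than 2-fold lower. Quantile normalization moved the median of the other MAP kinase phosphatases to 0.14. At 1.5-fold, 236 of the 11057 features were higher and 559 lower, together 7.19%. Among the higher were 1 of 5 other MAP kinase phosphatases (DUSP10) and 1 of 19 genes of the RAS to ERK core (HRAS). Of the 19 output genes, 6 were higher and 1 was lower. Medians were counted as moved beyond 0.1 on the log2 scale, and counts beyond 1.5 times.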

Other observations

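The rows of both tables run in roughly alphabetical order, except that the features past 2-fold above 0.1 FPKM in both cultures, SPRY4 among them, stand at other places. Taken in file order, these 730 features run by ratio. In 709 of the 729 successive pairs (97.3%) the next ratio is equal or lower, and SPRY4 is at place 67, whereas 51.2% of the pairs are in alphabetical order. The symbols in those places are out of order too, so symbols moved as well as values. Whether each symbol kept its own value, that of SPRY4 included, was not tested. Above 1 FPKM in both cultures, the minimum used for the ratios, 43 features were more than 2-fold higher and 142 lower. The ordered rows thus correspond to a minimum of 0.1 FPKM rather than 1. The study's methods state 730 genes past 2-fold with a minimum of 1 FPKM. That number was not reached here at 1 FPKM but is that of the ordered group, which includes SPRY4. No other of the 9 feedback genes is in this group. PLAUR, CCND1, FOSL1 and DUSP13 meet its rule and belong to it, so whether these symbols kept their own values was likewise not tested.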
